A study of Mus musculus with 24 samples.

Results

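Interferon-stimulated genes are the genes that cells switch on when interferon binds its receptor, and 9 of them were followed here across 24 mouse hippocampi. They were Ifit1, Ifit3, Irf7, Stat2, Isg15, Oasl2, Usp18, Bst2 and Rsad2, taken by name, and their 12 probes were found by matching the RefSeq accession of each probe on the array to these symbols. They stand among 35259 genes and unnamed probes that were tested, which are all called genes below. The hippocampi came from male mice that share 1 strain label, in 6 groups, with 1 Agilent one-colour array per sample. The transgenic groups, labelled APP-PS1, carried the transgenes of that line, which are driven by the mouse prion protein promoter and make the animals deposit amyloid in the brain. APP-PS1_UA-WASHOUT (n = 5), APP-PS1_WASHOUT (n = 3) and WT_WASHOUT (n = 5) are labelled 9 months old and lived for 1 month after the end of gavage. APP-PS1_UA (n = 4), APP-PS1_CTR (n = 3) and WT_CTR (n = 4) are labelled 8 months old and were collected when gavage ended. Groups with UA in the name had received urolithin A, a compound that gut bacteria make from ellagitannins, by daily gavage between 2 and 7 months of age, and the others had received water. The sources differ on the dose, with 200 mg/kg/day in the protocol and 20 mg/kg/day in the design text, and on age, which the design text puts at 7 months with the washout groups 1 month older. WT_CTR and WT_WASHOUT mice are labelled as lacking both transgenes.

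Type I interferons bind the receptor subunits IFNAR1 and IFNAR2, whose kinases JAK1 and TYK2 phosphorylate STAT proteins, STAT2 among them. STAT2 is part of the factor ISGF3, which binds the interferon-stimulated response element in the promoters of target genes. In the brain, microglia are known to respond to interferon, and an interferon-responsive microglial state has been described around amyloid plaques. Among the 9 genes, Stat2 codes for a subunit of ISGF3 and Irf7 for the transcription factor that amplifies interferon production. Isg15 codes for a ubiquitin-like protein, and Usp18 for the protease that removes ISG15 from its targets and that restrains signalling at the receptor. Ifit1, Ifit3, Oasl2, Rsad2 and Bst2 code for antiviral effectors: IFIT1 and IFIT3 act on viral RNA, OASL2 belongs to the oligoadenylate synthetase family, RSAD2 is viperin, and BST2 is tetherin, which holds budding virions at the cell surface.

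Promoter sequences are shown because most of these genes share the letters of the response element, whether or not their levels moved together. The window was the 250 bases before the annotated start in the RefSeq table, build GRCm38.p6, which held an entry for 8 of the 9 genes (Usp18 had none). The core of the element was searched as GAAANNGAAA on both strands, overlaps between matches included. It was present in 6 of the 8 windows, against 936 of the 27025 genes in the table (3.46%). The 4 windows below are written 5′ to 3′ on the strand of the gene with the matches in capitals.
Isg15, chr4:156200819-156201068, minus strand: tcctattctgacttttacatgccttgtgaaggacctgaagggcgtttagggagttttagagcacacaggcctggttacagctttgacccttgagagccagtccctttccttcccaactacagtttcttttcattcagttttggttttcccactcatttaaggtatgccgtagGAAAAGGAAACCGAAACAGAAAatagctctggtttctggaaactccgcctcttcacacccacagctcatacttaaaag
Ifit1, chr19:34640639-34640888, plus strand: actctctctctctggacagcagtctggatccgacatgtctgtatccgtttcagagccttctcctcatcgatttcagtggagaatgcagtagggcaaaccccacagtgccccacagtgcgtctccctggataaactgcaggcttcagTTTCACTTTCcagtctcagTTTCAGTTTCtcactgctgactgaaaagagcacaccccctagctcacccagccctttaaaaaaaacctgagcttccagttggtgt
Bst2, chr8:71537473-71537722, minus strand: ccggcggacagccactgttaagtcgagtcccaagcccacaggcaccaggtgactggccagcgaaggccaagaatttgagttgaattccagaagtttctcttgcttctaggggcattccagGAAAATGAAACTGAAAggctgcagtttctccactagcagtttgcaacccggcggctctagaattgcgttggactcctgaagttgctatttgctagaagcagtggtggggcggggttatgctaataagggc
Stat2, chr10:128270248-128270497, plus strand: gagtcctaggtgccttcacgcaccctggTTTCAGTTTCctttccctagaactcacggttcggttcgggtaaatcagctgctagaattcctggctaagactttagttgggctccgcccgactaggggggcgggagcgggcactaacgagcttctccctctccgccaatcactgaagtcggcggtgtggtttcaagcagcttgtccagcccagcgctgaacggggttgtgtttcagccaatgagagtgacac
Isg15 held 3 overlapping matches, which start 78, 72 and 66 bases before the annotated start. Ifit1 held 2, at 104 and 85 bases, both on the opposite strand. Bst2 held 2 overlapping matches at 130 and 124 bases, and Stat2 held 1 at 222 bases on the opposite strand. Of the genes not printed, Ifit3 held 2 and Rsad2 held 1, and the windows of Irf7 and Oasl2 held none. The letters TTCNNNGAA, the core to which STAT dimers bind, were found in 1 window, that of Bst2, against 8.13% of all genes. A match is a run of letters and does not show that a factor binds there.

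On each array 63.7% to 76.9% of spots passed the software's flag for signal well above background, with 0 saturated. Precision is limited by how few arrays each group has. There were 3 slides of 8 arrays. APP-PS1_UA-WASHOUT and APP-PS1_WASHOUT filled slide 3. WT_WASHOUT shared slide 2 with replicates 2 to 4 of APP-PS1_UA, and slide 1 took APP-PS1_UA replicate 1 together with APP-PS1_CTR and WT_CTR. The transgenic washout groups and WT_WASHOUT therefore lay wholly on different slides, and slide and genotype cannot be told apart in comparisons between them. On slide 1, WT_CTR filled array row 1 and the transgenic arrays filled row 2. Array row and genotype therefore cannot be told apart within slide 1, which held all of APP-PS1_CTR and WT_CTR. All 10 hippocampal markers were well above background on every array. As a check of the labels, 1 of 2 Prnp (prion protein) probes read 7.21 to 7.56 on the 15 transgenic arrays and 5.74 to 6.14 on the 9 others, with no overlap. The labels do not state that each array is a separate animal, though arrays are called animals below, so p-values measure only the spread between these samples, which may be technical.

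Levels are log2 signal minus the 75th percentile of the array, on which a difference of 1 is a doubling, and a level of 1 probe cannot be set against that of another. For each gene the probe of highest mean signal was used, and each of these 9 probes was well above background on all 24 arrays. Comparisons come from limma fitted to all genes and all 24 arrays, with p-values adjusted by the Benjamini-Hochberg method over all genes, and a gene was called when its adjusted p was under 0.05. RNA came from whole hippocampus, where fewer cells of a type and less RNA per cell cannot be told apart.

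**Figure D1:**
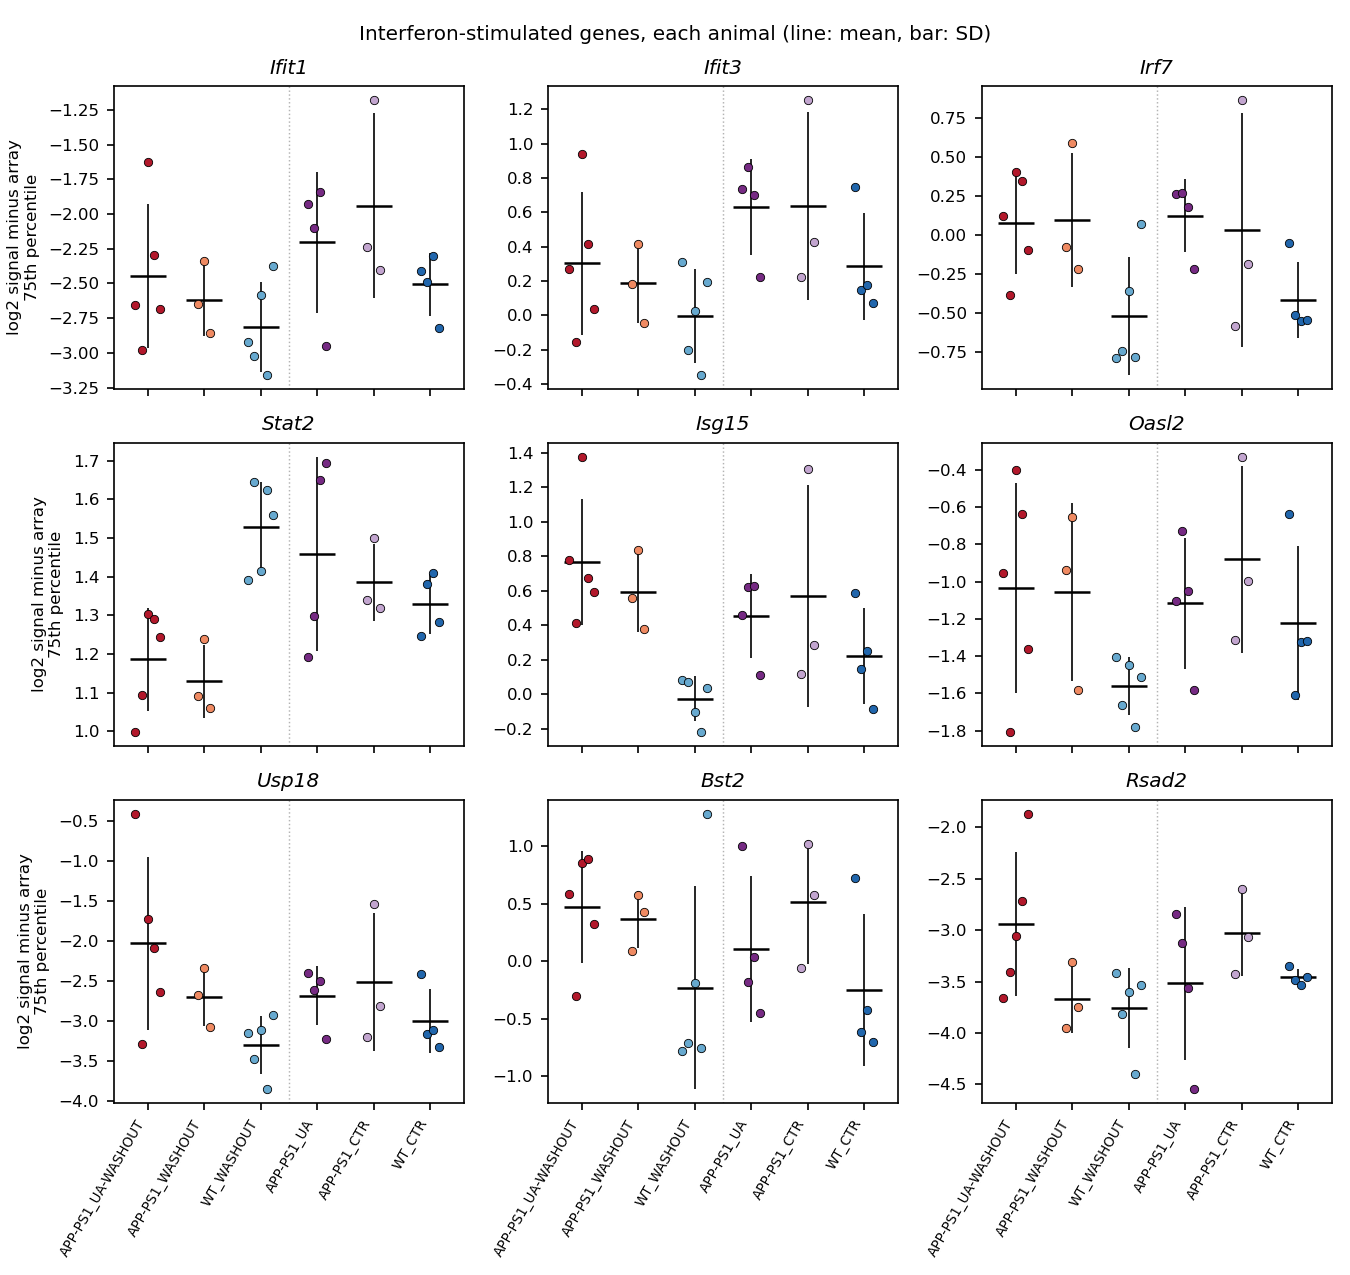
Level of each of the 9 genes in every animal (log2 signal minus the array's 75th percentile, vertical axes differ between panels), by group, with the mean as a line and the SD as a bar. Isg15 and Stat2 are the genes whose WT_WASHOUT animals do not overlap the transgenic washout animals, and the dotted line divides the washout groups from the groups collected at the end of treatment.

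The group means of a gene spanned between 0.40 (Stat2) and 1.27 (Usp18) log2 units over the 6 groups. WT_WASHOUT had the lowest mean for Ifit1, Ifit3, Irf7, Isg15, Oasl2, Usp18 and Rsad2, and the highest for Stat2. When the 6 means of each gene were ordered, 2 of the 45 pairs of neighbours differed by more than the larger SD of the pair. These were APP-PS1_CTR above WT_CTR for Rsad2, and WT_CTR above APP-PS1_UA-WASHOUT for Stat2. Neighbours in an order are the closest groups by construction, so this count says nothing of groups farther apart.

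The first comparison asked how the genes stood in transgenic mice when treatment ended. All 9 were higher on average in APP-PS1_CTR than in WT_CTR, by 0.06 (Stat2) to 0.77 (Bst2), and 0 of the 9 passed the test in limma. Of all genes, 0.17% (60) were called. With array row as a fixed block 8 were called. The smallest adjusted p among the 9 was 0.798, and 0 had an unadjusted p under 0.05. The median of the 9 changes was 0.42, beside -0.003 over all genes.

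In that comparison the median change was carried largely by 1 animal of APP-PS1_CTR. Isg15 read 0.12, 1.31 and 0.28 in the 3 APP-PS1_CTR animals, against 0.59, 0.14, 0.25 and -0.09 in the 4 WT_CTR animals. Replicate 2 stood high and the other two lay within the WT_CTR range. Ifit1 read -2.24, -1.18 and -2.40 in APP-PS1_CTR, against -2.41, -2.49, -2.30 and -2.82 in WT_CTR, again with replicate 2 at the top. The same animal was the highest of its group for 9 of 9 genes. Without it the median change was 0.04, 6 of the 9 changes were above 0, and that of Isg15 was -0.02. Bst2 still read -0.06 and 0.58 in replicates 1 and 3, against a mean of -0.255 ± 0.661 in WT_CTR (SD). Without APP-PS1_CTR replicate 1, the lowest of the group for 7 of 9 genes, the median was 0.62. In WT_CTR, replicate 1 was the highest for 7 of 9 genes.

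With urolithin A, the genes stood close to those of untreated transgenic mice. Of the 9, 0 passed the test between APP-PS1_UA and APP-PS1_CTR in limma, where 0% of all genes were called (2623 of 35259 had an unadjusted p under 0.05, among them 0 of the 9). Changes ran from -0.49 (Rsad2) to 0.09 (Irf7) with a median of -0.17. Isg15 read 0.46, 0.62, 0.63 and 0.11 in APP-PS1_UA, a narrower spread than the 0.12 to 1.31 of APP-PS1_CTR. Within slide 1, which held all of APP-PS1_CTR and 1 APP-PS1_UA animal, the median change was 0.10. Slide as a fixed block gave the same 0.10, since that estimate also rests on this 1 animal, so it is no second check. The sign of the median thus turned when that animal alone stood for APP-PS1_UA. Without APP-PS1_CTR replicate 2, and with no slide term, the median was 0.13. The comparisons at the end of treatment share animals: APP-PS1_CTR, replicate 2 included, stands in the first and in this one. Against WT_CTR, APP-PS1_UA had a median change of 0.30, and 0 of the 9 passed the test where 0.0624% of all genes did. The median was 0.58 with slide as a block or within slide 1, both of which rest on APP-PS1_UA replicate 1 alone. This comparison shares WT_CTR with the first. Irf7 had the largest difference there, at 0.54 ± 0.27 (SE, adjusted p = 0.782).

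After washout, 4 of the 9 genes differed between transgenic and WT_WASHOUT hippocampi in the urolithin A group and 1 of 9 in the untreated group. Between APP-PS1_UA-WASHOUT and WT_WASHOUT, Isg15, Usp18 and Rsad2 rose and Stat2 fell. Between APP-PS1_WASHOUT and WT_WASHOUT, Stat2 fell and 8 genes did not pass. These counts lie near or below the background: in APP-PS1_UA-WASHOUT against WT_WASHOUT 36.3% of all genes were called (23% higher and 13.4% lower), and in APP-PS1_WASHOUT against WT_WASHOUT 27.5% (19.8% higher and 7.71% lower). The counts of 4 of 9 and 1 of 9 are thus no result about these genes as a set. Both comparisons lie between slides, and they share the WT_WASHOUT animals.

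Isg15 read 0.78, 0.41, 1.38, 0.67 and 0.59 in APP-PS1_UA-WASHOUT and 0.56, 0.84 and 0.38 in APP-PS1_WASHOUT, against 0.09, 0.07, -0.10, -0.22 and 0.04 in WT_WASHOUT. Every transgenic animal lay above every WT_WASHOUT animal. The change was 0.79 ± 0.20 in APP-PS1_UA-WASHOUT (SE, a fold of 1.73, adjusted p = 0.00402) and 0.62 ± 0.23 in APP-PS1_WASHOUT (SE, a fold of 1.54, adjusted p = 0.054), both from limma against WT_WASHOUT. Leaving out each animal in turn kept the first of these between 0.64 and 0.88.

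Usp18, the ISG15 protease, read -0.41, -3.28, -1.72, -2.08 and -2.64 in APP-PS1_UA-WASHOUT, against -3.15, -3.48, -3.12, -3.84 and -2.93 in WT_WASHOUT. The groups overlapped, and APP-PS1_UA-WASHOUT replicate 1 stood more than 1 log2 unit above the rest. The change was 1.27 ± 0.40 (SE, a fold of 2.42, adjusted p = 0.0156 in limma). Without that animal it was 0.87 (adjusted p = 0.0496 in limma). In APP-PS1_WASHOUT Usp18 read -2.67, -2.34 and -3.07, a change of 0.61 that did not pass the test. In the deposited score Usp18 and Rsad2 did not pass in either comparison.

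Rsad2 read -3.66, -3.41, -3.05, -2.71 and -1.87 in APP-PS1_UA-WASHOUT, against -3.42, -3.81, -3.60, -4.40 and -3.54 in WT_WASHOUT, and the groups overlapped. The change was 0.81 ± 0.31 (SE, a fold of 1.76, adjusted p = 0.0469 in limma). It missed the threshold when any of 7 of the 10 animals was left out, with the lowest value, 0.54 (adjusted p = 0.147 in limma), without APP-PS1_UA-WASHOUT replicate 5. The other Rsad2 probe was well above background on 5 of the 24 arrays and on none of the transgenic washout arrays, so it gives no change.

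Irf7 read 0.12, -0.38, 0.40, 0.35 and -0.10 in APP-PS1_UA-WASHOUT and -0.08, 0.59 and -0.22 in APP-PS1_WASHOUT, against -0.79, -0.74, -0.36, -0.78 and 0.07 in WT_WASHOUT. WT_WASHOUT replicate 5 lay inside the transgenic range and the other 4 at its lower end or below it. The changes of 0.60 and 0.62 had adjusted p of 0.0586 and 0.108 in limma. Without WT_WASHOUT replicate 5 both passed (adjusted p = 0.0226 and 0.0474 in limma), and without APP-PS1_UA-WASHOUT replicate 2 the first did (adjusted p = 0.0336 in limma). Bst2 had means of 0.47 ± 0.49 in APP-PS1_UA-WASHOUT (SD, n = 5) and 0.36 ± 0.25 in APP-PS1_WASHOUT (SD, n = 3), against -0.23 ± 0.88 in WT_WASHOUT (SD, n = 5), and did not pass. Oasl2 differed by 0.53 and 0.50, Ifit1 by 0.37 and 0.19, and Ifit3 by 0.31 and 0.19, in APP-PS1_UA-WASHOUT and APP-PS1_WASHOUT against WT_WASHOUT, and none of these passed.

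The directions of the lesser changes turned with the scaling. Changes in the deposited score are given after multiplying it by 4.225, the mean SD of the log2 signal of an array, which brings it near the log2 scale. In it the median of all genes moved by -0.20 in APP-PS1_UA-WASHOUT against WT_WASHOUT and by -0.11 in APP-PS1_WASHOUT against WT_WASHOUT. There Ifit1 had changes of -0.14 and -0.15, and Rsad2 of 0.22 and -0.32. Of the 9 genes, 8 and 6 lay above the median of all genes in that score. Over all genes, the share of called genes that were higher was 63.2% in APP-PS1_UA-WASHOUT against WT_WASHOUT and 72.0% in APP-PS1_WASHOUT against WT_WASHOUT. With quantile normalization these shares were 39.1% and 45.9%, in the deposited score 32.7% and 41.2%, and with no filter on dim probes 77.5% and 77.9%. Isg15 stood above 0 and the brighter Stat2 probe below 0 in both comparisons under these scalings.

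**Figure D2:**
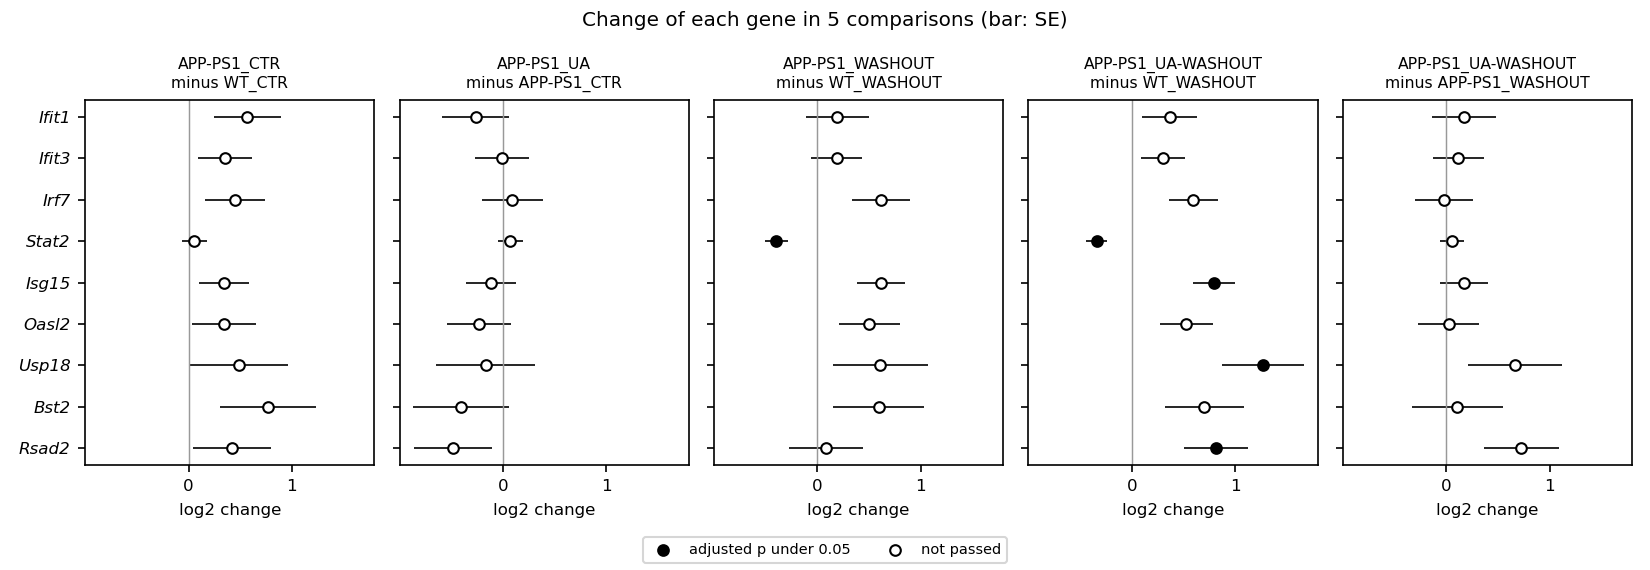
Change of each of the 9 genes in 5 comparisons (log2 scale, points are limma estimates and bars their SE, filled points have an adjusted p under 0.05). Filled points appear in the 2 panels against WT_WASHOUT: Stat2 in both, and Isg15, Usp18 and Rsad2 in APP-PS1_UA-WASHOUT.

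Stat2, the ISGF3 subunit, gave opposite answers from its 2 probes. On the brighter probe it read 1.0, 1.09, 1.30, 1.29 and 1.25 in APP-PS1_UA-WASHOUT and 1.09, 1.24 and 1.06 in APP-PS1_WASHOUT, against 1.39, 1.65, 1.42, 1.62 and 1.56 in WT_WASHOUT. No transgenic washout animal reached the WT_WASHOUT range. The changes were -0.34 ± 0.10 (SE, adjusted p = 0.00898) and -0.40 ± 0.11 (SE, adjusted p = 0.0115) in limma. The second of these missed the threshold without APP-PS1_WASHOUT replicate 3 (adjusted p = 0.0538 in limma). The dimmer probe moved the other way, by more. It read -3.29, -3.07, -3.44, -2.45 and -3.22 in APP-PS1_UA-WASHOUT and -3.53, -3.15 and -3.77 in APP-PS1_WASHOUT, against -4.44, -4.94, -4.72, -4.46 and -5.11 in WT_WASHOUT.

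In a fit over all 43973 probes, that dimmer Stat2 probe rose by 1.64 (adjusted p = 1.31e-06) in APP-PS1_UA-WASHOUT and by 1.25 (adjusted p = 0.000291) in APP-PS1_WASHOUT against WT_WASHOUT, by limma. In the same fit 35.5% and 25.8% of all probes were called. The dimmer Irf7 probe also rose (adjusted p = 0.00155 and 0.0158 in limma). It was well above background on 3 of 5 APP-PS1_UA-WASHOUT, 3 of 3 APP-PS1_WASHOUT and 2 of 5 WT_WASHOUT arrays, so the size of its change rests partly on background readings and is not given. Dim probes as a whole stood higher on slide 3. Among the 8795 probes of lowest mean level the median change was 0.78 in APP-PS1_UA-WASHOUT and 0.75 in APP-PS1_WASHOUT against WT_WASHOUT, and among the next 8794, which include the dimmer Stat2 probe, it was 0.17 and 0.19. The part of this in the Stat2 and Irf7 values was not tested. At the end of treatment both Stat2 probes differed little: APP-PS1_CTR against WT_CTR gave 0.06 on the brighter and -0.34 on the dimmer probe, neither called. With the mean of both probes, Stat2 was higher by 0.65 and 0.43 in these groups than in WT_WASHOUT, so its direction there rests on the choice of probe.

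**Figure D3:**
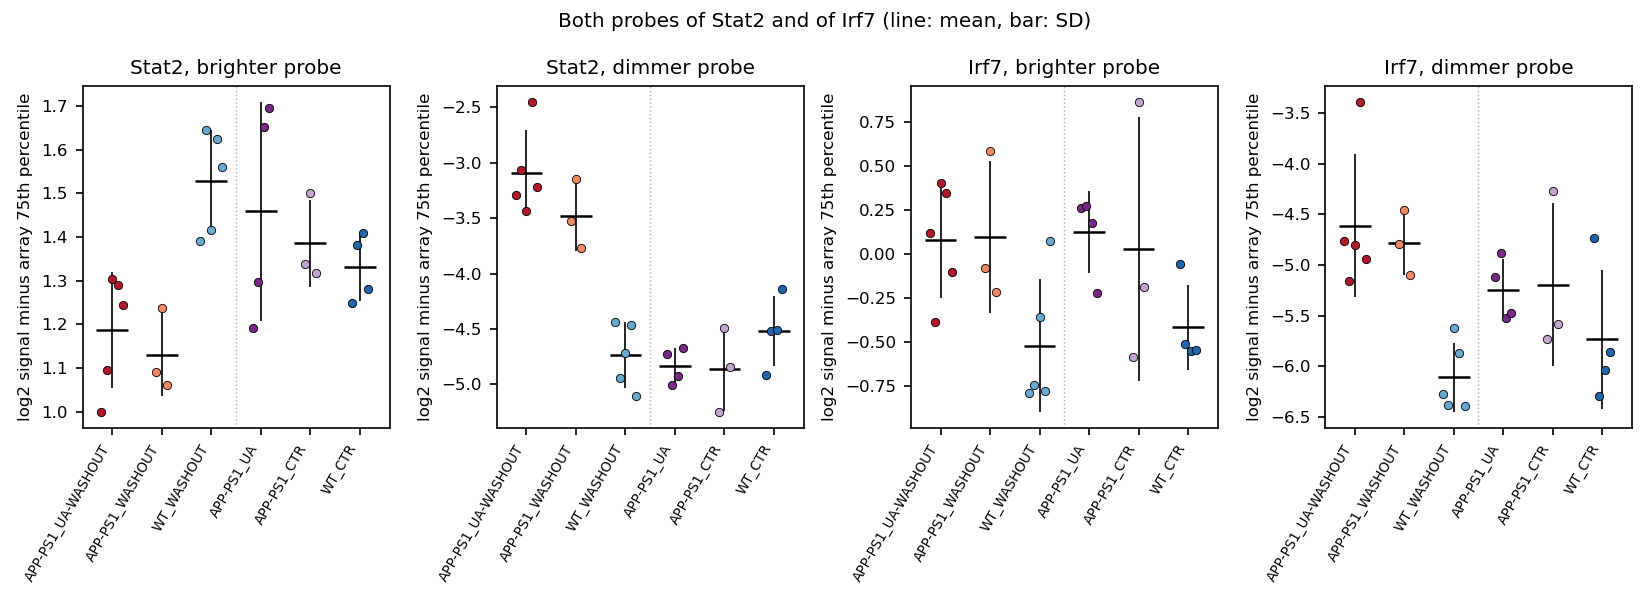
Levels of the brighter and dimmer probes of Stat2 and Irf7 in every animal (log2 signal minus the array's 75th percentile), by group, with the mean as a line and the SD as a bar. The brighter Stat2 probe is lower and the dimmer one higher in the transgenic washout groups than in WT_WASHOUT, while both Irf7 probes have higher means there.

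A month after gavage ended, urolithin A made no called difference among transgenic animals. Between APP-PS1_UA-WASHOUT and APP-PS1_WASHOUT, both on slide 3, 0 of the 9 passed the test in limma, where 0.0652% of all genes did, and 0 of the 9 had an unadjusted p under 0.05. The median change was 0.12, with Rsad2 at 0.73 ± 0.36 (SE, adjusted p = 0.666) and Usp18 at 0.67 ± 0.46 (SE, adjusted p = 0.779) farthest from 0. Between WT_WASHOUT and WT_CTR, 0 of 9 passed where 0.017% of all genes did. Of the 9, 7 were lower in WT_WASHOUT and the median was -0.29, which became 0.07 with slide as a fixed block. The slide term there came from APP-PS1_UA alone, with 1 animal on slide 1 and 3 on slide 2.

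Differences between the stages were tested directly. The transgene effect after washout minus that at the end of treatment called 0 of 9 where 14.3% of all genes were called. The share of these that were higher was 81.4%, against 56.3% with quantile normalization and 49.6% in the deposited score. Stat2 came nearest, at -0.45 ± 0.16 (SE, adjusted p = 0.0683 in limma). The urolithin A effect after washout minus that at the end of treatment called 0 of 9 where 0.00851% were called, and Rsad2 had the largest value, 1.22 ± 0.52 (SE, adjusted p = 0.445 in limma).

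Differences between animals of the same group were shared by most of the genes. After each gene was centred on its group mean, APP-PS1_CTR replicate 2 lay 0.61 above its group on the average of the 9 genes, and APP-PS1_UA-WASHOUT replicate 2 lay 0.57 below (a deviation of -0.57). APP-PS1_WASHOUT replicate 2 was the highest of its group for 9 of 9 genes, APP-PS1_UA-WASHOUT replicate 3 for 6 of 9, and APP-PS1_UA replicate 4 was the lowest for 8 of 9. The within-group SD was 0.33 for Isg15, 0.35 for Ifit3, 0.64 for Bst2 and 0.66 for Usp18, against a median of 0.27 over all genes, and 0.14 for Stat2.

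**Figure D4:**
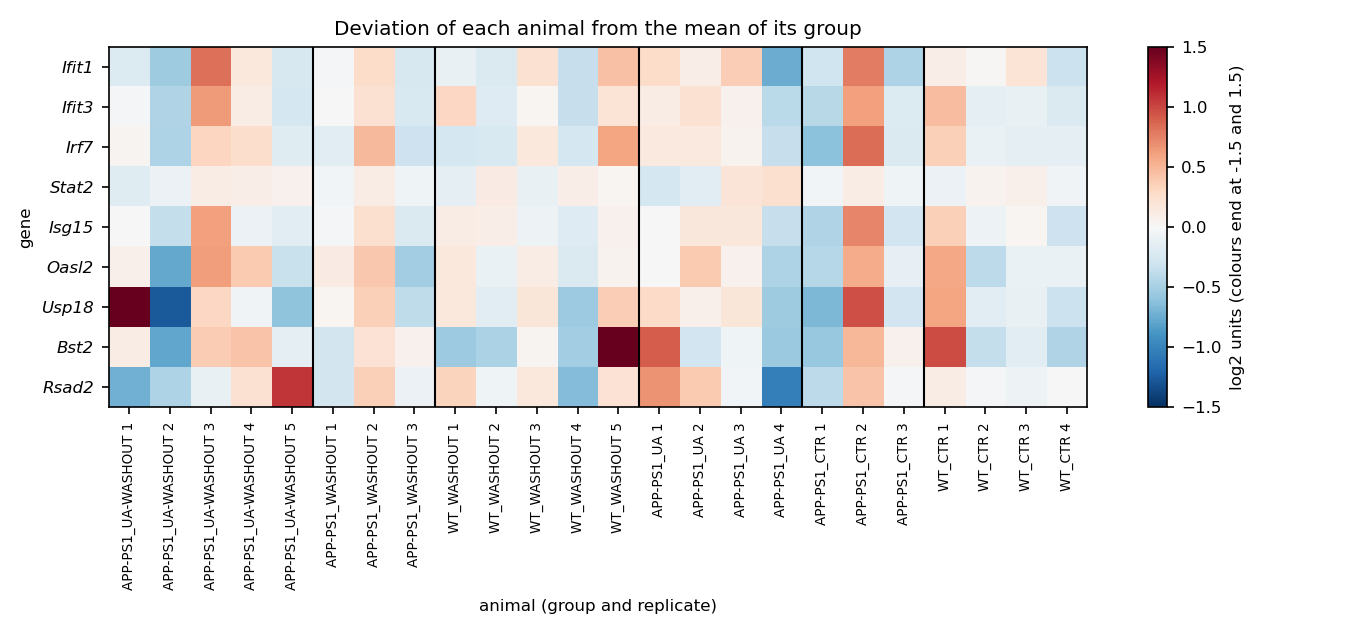
Deviation of each animal (columns, by group and replicate) from the mean of its own group for each gene (rows), in log2 units, with colours ending at 1.5 either way. Columns tend to have 1 colour over most genes, as in APP-PS1_CTR 2 and APP-PS1_UA-WASHOUT 2, while the Stat2 row stays pale.

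Of the 36 pairs of genes, 22 were correlated over the 24 group-centred arrays at an adjusted p under 0.05 (100000 permutations within groups, two-sided, adjusted over the 36). None of the 22 involved Stat2. Ifit3 and Isg15 had the closest relation, with Pearson's r = 0.92 (adjusted permutation p = 9e-05) and Spearman's rho = 0.89 (adjusted permutation p = 0.00018). The unadjusted permutation p of 1e-05 behind both is the smallest that the permutations can give. Without the 2 arrays farthest from the median of Ifit3, r was 0.87. Ifit3 and Oasl2 had r = 0.91 and rho = 0.93 (adjusted permutation p = 9e-05 and 0.00018), with r = 0.89 without the 2 farthest arrays. Rsad2 was the loosest of the other genes: on Pearson's r 1 of its 7 relations with them passed, that with Irf7 (r = 0.46, rho = 0.57, adjusted permutation p = 0.0461 and 0.0229). Within slides, r of Rsad2 with these 7 genes lay between 0.56 and 0.78 on slide 1, 0.37 and 0.94 on slide 2, and -0.35 and 0.21 on slide 3. Stat2 had r between -0.19 and 0.17 with the other 8, and within slides between -0.43 and 0.33, -0.81 and -0.07, and -0.20 and 0.71 on slides 1, 2 and 3.

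Markers of other tissues also moved between animals of 1 group. The mean of 12 choroid plexus markers, all measured, ran from -2.27 to 1.97 in APP-PS1_UA-WASHOUT, -1.49 to 2.26 in APP-PS1_WASHOUT, -3.24 to 2.80 in WT_WASHOUT, -2.93 to 2.96 in APP-PS1_UA, 0.56 to 2.30 in APP-PS1_CTR and -2.38 to 2.49 in WT_CTR (log2, each marker centred over the 24 arrays). Of 90 relations between 10 marker lists and the 9 genes, 1 passed on Pearson's r after adjustment over all 90. It joined choroid plexus markers and Bst2, with r = 0.82 (adjusted permutation p = 0.0018) and rho = 0.79 (adjusted permutation p = 0.0027), r = 0.75 without the 2 farthest arrays, and r = 0.89, 0.83 and 0.70 within slides 1, 2 and 3. Bst2 reached 1.28 in WT_WASHOUT replicate 5, where the choroid plexus mean was 2.80, and lay between -0.78 and -0.19 in the other 4 animals of that group. Isg15 had r = 0.30 with the same markers (adjusted permutation p = 0.406).

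Blood and leukocyte, endothelial, and meningeal and fibroblast markers passed for no gene on Pearson's r. Meningeal and fibroblast markers came near the threshold for some genes. Their r was 0.70 with Ifit1, 0.70 with Ifit3 and 0.67 with Isg15 (adjusted permutation p = 0.0817, 0.0817 and 0.0868), but 0.07 with Rsad2 and -0.03 with Stat2. Within slides 1, 2 and 3, r with Ifit1 was 0.73, 0.87 and 0.68. On Spearman's rho, Bst2 passed with meningeal markers (rho = 0.66, adjusted permutation p = 0.045, r = 0.52) and Irf7 with plaque-associated microglial markers (rho = 0.66, adjusted permutation p = 0.045, r = 0.53). The 8 meningeal and fibroblast markers averaged 0.82 in APP-PS1_CTR replicate 2 and 1.83 in APP-PS1_UA-WASHOUT replicate 3, the highest of their groups. In APP-PS1_WASHOUT replicate 2, the highest of its group for 9 of 9 genes, they averaged -0.42, the lowest of that group. The choroid plexus mean of that animal, -1.49, was also the lowest of the group. Microglial markers stood higher in the transgenic than in the WT groups at both stages. After washout slide and genotype cannot be told apart, nor array row and genotype between APP-PS1_CTR and WT_CTR. The 10 markers averaged 0.43 ± 0.13 in APP-PS1_UA-WASHOUT and 0.42 ± 0.19 in APP-PS1_WASHOUT, against -0.36 ± 0.12 in WT_WASHOUT (SD over arrays). They averaged -0.07 ± 0.12 in APP-PS1_UA and 0.04 ± 0.09 in APP-PS1_CTR, against -0.36 ± 0.08 in WT_CTR. The 11 measured of 12 plaque-associated microglial markers averaged 0.56 ± 0.08 in APP-PS1_CTR, against -0.74 ± 0.14 in WT_CTR, with no overlap, in the comparison in which 0 of the 9 interferon-stimulated genes passed. Of 6 plasmacytoid dendritic cell markers, 5 were measured, and they averaged 0.57 ± 0.30 in APP-PS1_UA-WASHOUT and 0.57 ± 0.21 in APP-PS1_WASHOUT, against -0.31 ± 0.24 in WT_WASHOUT, with no overlap. At the end of treatment they averaged -0.28 ± 0.15 in APP-PS1_UA and -0.12 ± 0.24 in APP-PS1_CTR, against -0.38 ± 0.28 in WT_CTR, and the ranges overlapped. That list holds Bst2 itself and Siglech, which the microglial list also holds, so it was not correlated with the 9 genes. The part of these markers in the values of the 9 genes was not tested.

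**Figure D5:**
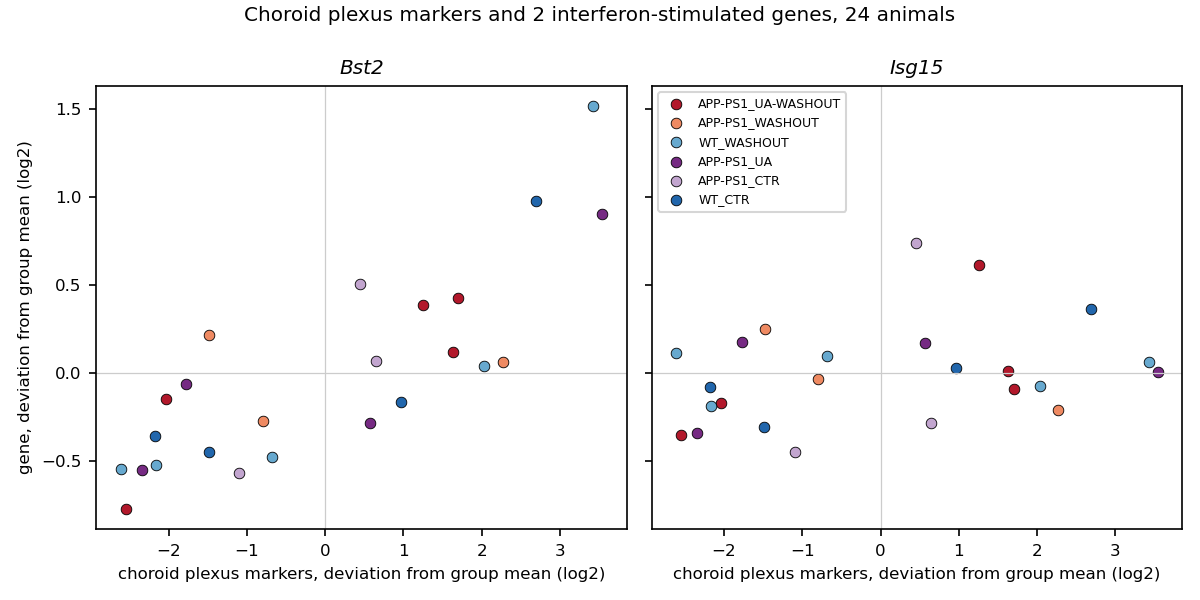
Deviation of Bst2 (left) and Isg15 (right) from the group mean against that of the mean of 12 choroid plexus markers, in log2 units, 1 point per animal. Bst2 follows the markers (r = 0.82), while Isg15 scatters (r = 0.30).

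The rest of the pathway was counted from lists chosen with earlier results of these data known. Of 10 interferon ligands, 4 were measured, of which 3 were called higher in APP-PS1_UA-WASHOUT and 2 in APP-PS1_WASHOUT against WT_WASHOUT. Of all genes, 23% and 19.8% were called higher there, and with 4 genes measured these counts are no result about the list. Of the 3 called ligands, Ifnk was not well above background on any array of APP-PS1_UA-WASHOUT or WT_WASHOUT and gives no change. Ifna1 rose by 1.10 ± 0.20 in APP-PS1_UA-WASHOUT and 0.97 ± 0.23 in APP-PS1_WASHOUT against WT_WASHOUT (SE, adjusted p = 0.000168 and 0.00313 in limma). Ifna2 was called higher in both as well. It was well above background on 4 of 5 APP-PS1_UA-WASHOUT, 3 of 3 APP-PS1_WASHOUT and 1 of 5 WT_WASHOUT arrays. The size of its change thus rests on background readings and is not given. At the end of treatment it was so on 0 of 4 APP-PS1_UA, 0 of 3 APP-PS1_CTR and 1 of 4 WT_CTR arrays. It passed the filter of at least 3 arrays only through the transgenic washout groups, so its call is no evidence of a rise. The interferon alpha genes are near copies of each other, so their probes may not tell them apart, and dim probes as a whole stood higher on these arrays. In APP-PS1_CTR against WT_CTR 0 of the 4 ligands passed.

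Of 6 receptor genes, 2 were lower in both transgenic washout groups than in WT_WASHOUT. For these lists, rose or fell after washout means higher or lower than in WT_WASHOUT, not a change over time. Slide and genotype cannot be told apart in these comparisons, and the direction of called genes turned with the scaling. Here and in the lists that follow, the counts are to be read against the shares of all genes: 23% called higher and 13.4% lower in APP-PS1_UA-WASHOUT, and 19.8% higher and 7.71% lower in APP-PS1_WASHOUT. With so few genes in a list, these counts are no result about the list. Ifngr2, a chain of the interferon gamma receptor, fell by 0.56 in each, and Ifnar1 fell by 0.32 in APP-PS1_UA-WASHOUT and 0.44 in APP-PS1_WASHOUT. Of 6 genes of JAK-STAT signalling, Jak1 fell by 0.24 in APP-PS1_UA-WASHOUT (adjusted p = 0.0315 in limma), and none passed in APP-PS1_WASHOUT against WT_WASHOUT. Of 8 negative feedback genes, Ptpn6, the phosphatase SHP-1, rose in APP-PS1_CTR against WT_CTR (0.88 ± 0.17, SE, adjusted p = 0.0387 in limma) as well as after washout (0.86 and 0.77), and differed by 0.45 in APP-PS1_UA against WT_CTR, which did not pass. In APP-PS1_CTR against WT_CTR, array row and genotype cannot be told apart. Pias1, an inhibitor of STAT signalling, fell by 0.29 and 0.25 after washout.

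Among 6 measured interferon regulatory factors, Irf8, which microglia need for their development, was higher in APP-PS1_CTR than in WT_CTR. It was also higher in both transgenic washout groups than in WT_WASHOUT. Its mean was 0.01 in APP-PS1_CTR, against -0.66 in WT_CTR (a change of 0.68 ± 0.12, SE, adjusted p = 0.0212 in limma), and the changes after washout were 1.06 and 1.01. In APP-PS1_UA against WT_CTR it differed by 0.42 and did not pass (adjusted p = 0.375 in limma). Array row and genotype cannot be told apart between APP-PS1_CTR and WT_CTR, nor slide and genotype after washout. Irf5 rose by 0.50 and 0.49 after washout, and the other 4 did not pass. Of 14 sensors of nucleic acids that were counted, 0 passed in APP-PS1_CTR against WT_CTR. The list held Ddx58 under its other name, Rigi, which was not matched, so Ddx58 was measured but is not in these counts. Tlr7, an endosomal receptor for single-stranded RNA, rose by 2.25 in APP-PS1_UA-WASHOUT and 2.43 in APP-PS1_WASHOUT against WT_WASHOUT, and Sting1 rose by 0.38 and 0.42, while Tlr3 fell by 0.56 and Myd88 by 0.29 in APP-PS1_UA-WASHOUT. In all, 4 sensing genes rose and 2 fell in APP-PS1_UA-WASHOUT, and 4 rose and 0 fell in APP-PS1_WASHOUT.

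Of 46 measured other type I interferon targets, 0 passed in APP-PS1_CTR against WT_CTR and 40 were above 0, with a median change of 0.30. Cxcl10, a chemokine, was farthest from 0 there, at 1.38 ± 0.53 (SE, adjusted p = 0.668 in limma). After washout 12 rose and 0 fell in APP-PS1_UA-WASHOUT, and 7 rose and 1 fell in APP-PS1_WASHOUT, against WT_WASHOUT. The counts that rose lie near the share of all genes called higher. Of the 46, 0 and 1 fell, where 13.4% and 7.71% of all genes were called lower. The list was chosen with earlier results known, and the direction of called genes turned with the scaling. The few falls are thus no result about the list. Apol9a rose by 1.32 and 1.08, Oas1a, an oligoadenylate synthetase, by 0.86 and 0.79, and Mndal by 0.60 and 0.70. Of 5 genes of ISG15 conjugation, Uba7, the activating enzyme for ISG15, rose by 0.55 and 0.62, and Ube2e2 fell by 0.30 in APP-PS1_UA-WASHOUT. Of 23 measured interferon gamma targets, 6 rose in APP-PS1_UA-WASHOUT and 7 in APP-PS1_WASHOUT, and 0 fell, while 0 passed in APP-PS1_CTR against WT_CTR. Among those that rose were the immunoproteasome subunits Psmb8 (0.59 and 0.56), Psmb9 (0.62 and 0.72) and Psmb10 (0.41 and 0.43). Between APP-PS1_UA and APP-PS1_CTR, and between APP-PS1_UA-WASHOUT and APP-PS1_WASHOUT, 0 of the genes counted in these lists passed.

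The genes whose pattern was most like the mean of the 9 were picked by Pearson's r over the 24 group-centred arrays among 18557 other genes with a symbol. The 10 closest were Parp9 (r = 0.92), Trim30d, Ddx58, Rtp4, Phf11d, Ifi204, Cxcl10, Gbp2, Ifitm3 and Trim30a (r = 0.85), and 8 of the 10 stand under these names in the pathway lists. Ddx58 stands in the sensing list as well, under the name Rigi. Without the 2 arrays farthest from their group mean their r lay between 0.70 (Trim30a) and 0.89 (Trim30d and Cxcl10). Without centring, 6 of the 10 closest genes were shared, again led by Parp9 (r = 0.90). Trim30a and Trim30d belong to a family of near copies, and their probes may share signal. Of the 10 genes, 7 had a promoter in the RefSeq table, and 4 of these held the response element core.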

How the data were processed

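RNA from 24 hippocampi was measured on one-colour Agilent arrays. Per the file headers, Feature Extraction 12.0.3.1 produced the deposited spot intensities, whose processed signal is corrected for background on each array alone. A deposited value table gives a score, which lay within 0.005 of the log signal standardized within each array; its columns had medians of -0.17 to -0.06, and its log base is unknown. The software flags, deposited as 0 or 1, marked outlier spots, which were removed. Replicate spots were averaged per probe after taking log2, and the 75th percentile of the array (a signal of 906 to 1585) was subtracted. Of 56605 probes, 43988 were well above background on at least 3 arrays, and 43973 had at least 2 values in each group. Probes took symbols through RefSeq accessions (32994 did).

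Tests used limma 3.58.1 in R 4.3.3, with 6 group means on all 24 arrays, and were tested on simulated data. Tables and plots used Python 3.11.15, pandas 2.3.3, numpy 2.4.6 and matplotlib 3.10.9. The 9 genes and all lists were chosen with earlier results of these data known. All 9 genes are named, and of each pathway list up to 6 called genes per comparison, or up to 3 of largest change. Alternatives covered background, normalization, filters, probes, slide, array row, weights, samples and single arrays left out. The mean spot signal that normexp was planned for was not used here, and the median signal (offset 50) took its place, chosen after seeing the data. The authors' own statistical tests are not given in the sources used here. The full strain name and some genes are not reported here.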

Additional observations from a re-analysis of the deposited data

Results flagged for a closer look

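In the 4 groups of 4 or 5 animals, each gene was checked for an animal far from the others of its group, 36 checks in all. Dixon's criterion marked 3, and chance marks about 1 in 20. Irf7 read -0.05 in WT_CTR replicate 1 and between -0.55 and -0.51 in the other 3 animals. Ifit3 read 0.75 in the same animal and between 0.07 and 0.18 in the others. Bst2 read 1.28 in WT_WASHOUT replicate 5 and between -0.78 and -0.19 in the other 4. The mean of the choroid plexus markers was 2.49 in WT_CTR replicate 1 and 2.80 in WT_WASHOUT replicate 5, the highest of each group, and its part in these values was not tested.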

How the results depend on the processing

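No setting called a member in APP-PS1_CTR or APP-PS1_UA against WT_CTR, in APP-PS1_UA against APP-PS1_CTR, in APP-PS1_UA-WASHOUT against APP-PS1_WASHOUT, in WT_WASHOUT against WT_CTR, or in the difference of urolithin A effects. In APP-PS1_WASHOUT against WT_WASHOUT, 1 member was called as reported, 0 with array row as a block, 2 with the mean of all probes, with slide as a random block or with the arrays of the compared groups alone, and 3 with array weights. Leaving out single arrays gave 0 to 2 (0 without APP-PS1_WASHOUT replicate 3, 2 without WT_WASHOUT replicate 5). In APP-PS1_UA-WASHOUT against WT_WASHOUT, 4 were called as reported, 2 in the deposited score or with the arrays of the compared groups alone, and 3 to 6 with single arrays left out. The median change there was 0.60, and 0.22 in the deposited score brought near the log2 scale. Stat2 reversed to 0.65 in APP-PS1_UA-WASHOUT and 0.43 in APP-PS1_WASHOUT with the mean of its probes. The difference of transgene effects called 1 member, Stat2, in the deposited score, with slide as a random block, with array weights and with the arrays of the compared groups alone, and 0 to 1 with single arrays left out (1 without WT_WASHOUT replicate 1). The median change of APP-PS1_CTR against WT_CTR was 0.04 to 0.62 with single arrays left out. The causes were not tested. Correlations of same-numbered arrays ran from -0.24 to 0.32. Their mean was 0.18 between APP-PS1_UA and WT_CTR (-0.06 for other numbers) and 0.15 between WT_WASHOUT and WT_CTR (-0.04 for other numbers). In the other comparisons it lay between -0.12 and 0.09, so replicate numbers showed no pairing throughout. With a replicate block 1 and 4 members were called in the 2 comparisons of transgenic washout groups with WT_WASHOUT and 0 elsewhere. The dimmer probes of Irf7 and Rsad2 were well above background on 18 and 5 of the 24 arrays.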
